A study of Mus musculus with 24 samples.

Results

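The mRNA of 10 genes of glucose use and of its control was read in T cells before and after allogeneic transplantation: the transcription factor genes Myc and Hif1a, the glucose transporter gene Slc2a1, and the enzyme genes Hk2, Pfkp, Aldoa, Tpi1, Pgk1, Pkm and Ldha. They were chosen by symbol, and were 10 of the 35868 genes in the tables. All 10 passed the filter on low counts in each fit. RNA of donor CD8+ and CD4+ T cells from the spleen was measured in 24 libraries, 3 in each of 8 groups set by genotype, cell type and time. WT donors were C57BL/6 mice. Cat-Tg donors were mice of the same background, heterozygous for a transgene in the p1017 vector that encodes human β-catenin lacking its N-terminal part (ΔN87βCat). Donors of both genotypes were 8 to 12 weeks old. The pre-tx groups were CD8+ or CD4+ cells sorted from the spleens of 3 mice of a genotype that had not been transplanted. The post-tx groups were donor cells carrying H-2Kb, sorted on day 7 from the spleens of 3 lethally irradiated BALB/c recipients per genotype, each given a 1:1 mix of CD4+ and CD8+ donor T cells with WT bone marrow depleted of T cells. A difference between pre-tx and post-tx therefore covers transfer, the irradiated allogeneic host and the time in it, which cannot be told apart.

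Glycolysis splits glucose into pyruvate, and lactate dehydrogenase turns pyruvate into lactate. T cells that have met their antigen take up more glucose and make lactate even where oxygen is present, which feeds growth and division. MYC and HIF1A are DNA-binding proteins that raise transcription of glucose transporter and glycolytic enzyme genes in many cells. MYC binds with MAX to the E-box, and HIF1A, which is degraded when oxygen is plentiful, binds with ARNT to a short core motif.

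Of the 10 genes, 9 had entries in the RefSeq promoter table (GRCm38.p6), with 13 start sites between them, and the 250 bases before each start were searched on both strands for CACGTG, the E-box of MYC and MAX, and for ACGTG and GCGTG, the core letters of the HIF1A site. The letters ACGTG lie inside CACGTG. The E-box was found before 2 of the 13 starts, those of Hif1a and of the upstream start of Ldha, and in 6.02% of the 32851 promoters of the table. For both starts, the bases just after them were not found unbroken in a transcript of the gene in GENCODE M21, to which the counts were matched. ACGTG was found before 8 of the 13 starts, of 7 genes, and in 16.6% of all promoters. GCGTG was found before 3 of the 13 starts and in 28.2% of all promoters. The stretches of 4 genes are shown 5′ to 3′, with the matching letters in capitals, those of Ldha and Hif1a because they hold the E-box, that of Pfkp because its mRNA rose in all 4 comparisons of post-tx with pre-tx and that of Pgk1 as a textbook target of HIF1A: Ldha (chr7:46845554-46845803, plus strand), Hif1a (chr12:73907617-73907866, plus strand), Pgk1 (chrX:106186850-106187099, plus strand) and Pfkp (chr13:6648772-6649021, minus strand). A match is a run of letters and no measured binding.
Ldha: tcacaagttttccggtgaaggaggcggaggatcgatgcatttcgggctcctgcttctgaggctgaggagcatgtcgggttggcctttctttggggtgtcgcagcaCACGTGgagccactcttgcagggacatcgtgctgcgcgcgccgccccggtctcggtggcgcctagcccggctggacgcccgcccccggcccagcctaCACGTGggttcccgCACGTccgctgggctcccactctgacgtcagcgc
Hif1a: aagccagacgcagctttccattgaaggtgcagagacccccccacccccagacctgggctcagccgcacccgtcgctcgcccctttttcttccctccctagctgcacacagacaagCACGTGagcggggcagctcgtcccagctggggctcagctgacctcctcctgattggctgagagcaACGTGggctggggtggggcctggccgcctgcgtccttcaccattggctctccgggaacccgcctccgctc
Pgk1: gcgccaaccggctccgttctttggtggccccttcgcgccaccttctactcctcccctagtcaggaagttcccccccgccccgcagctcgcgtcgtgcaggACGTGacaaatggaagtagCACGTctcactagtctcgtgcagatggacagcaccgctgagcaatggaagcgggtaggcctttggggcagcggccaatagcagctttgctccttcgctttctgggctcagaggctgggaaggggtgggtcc
Pfkp: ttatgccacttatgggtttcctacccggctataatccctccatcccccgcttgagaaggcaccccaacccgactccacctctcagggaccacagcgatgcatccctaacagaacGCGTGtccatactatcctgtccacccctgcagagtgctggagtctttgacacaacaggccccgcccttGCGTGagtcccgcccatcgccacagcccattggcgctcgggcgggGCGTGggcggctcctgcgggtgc

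Before any comparison, the labels were checked against marker genes. In the 18 libraries outside the WT pre-tx groups, Cd8a made up 99.0 to 99.9% of the summed normalised read counts of Cd8a and Cd4 in CD8+ libraries and 0.0895 to 3.39% in CD4+ libraries. In the 6 libraries labelled WT pre-tx that share was 50.0 to 63.9% for CD8+ and 52.4 to 65.4% for CD4+, so the labels CD8+ and CD4+ did not hold there. The same 6 libraries had the highest sums of 12 B cell genes, at 11458 to 15368 CPM (counts scaled to a common library total) against 500 to 3314 CPM in the other 18, and the lowest sums of 12 T cell genes, at 2001 to 3515 CPM against 5535 to 16023 CPM. Every comparison with a WT pre-tx group rests on them and has no value without them. For the other comparisons, a fit without these 6 libraries is given where it changed a call. In bulk RNA, fewer cells of a type and less RNA per cell cannot be told apart. The library names given in the labels begin with one prefix in all Cat-Tg libraries and with another in all WT libraries, and what the prefix stands for, which no source says, cannot be told apart from genotype. Y-linked transcripts also differed: Ddx3y was at 33.2 to 112 CPM in the 6 Cat-Tg pre-tx libraries and at 0 to 0.448 CPM in the other 18. All 4 of the Y-linked transcripts tested were lower post-tx than pre-tx in Cat-Tg CD8+ (median log2 fold change -6.82) and in Cat-Tg CD4+ (-6.90), and in pre-tx cells 2 of the 4 were higher in Cat-Tg than in WT in CD8+ (median 3.84) and 4 of the 4 in CD4+ (4.46). The labels give no sex. In the comparisons that use the Cat-Tg pre-tx libraries, the interaction included, sex cannot be told apart from time or genotype, and Pgk1 of the 10 genes is X-linked. Each library held 11135713 to 50519825 estimated counts (median 27062440). A count of 3 corresponded to 0.0594 to 0.269 CPM.

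After transplantation, 5 of the 10 genes rose in Cat-Tg CD8+ cells, 6 in WT CD8+, 7 in Cat-Tg CD4+ and 4 in WT CD4+, and none fell. Over all genes tested, 14% were called in either direction in Cat-Tg CD8+, 23.6% in WT CD8+, 45.2% in Cat-Tg CD4+ and 24.4% in WT CD4+. The share called higher was 8.73%, 13.2%, 16.2% and 14.8%. A gene was called at an adjusted p of at most 0.05 over all genes of a fit. The median log2 fold change of the 10 genes was 1.51, 1.85, 1.13 and 1.09 in that order, beside medians over all genes of -0.26, -0.23, -0.38 and -0.14. Pfkp was called in each of the 4 comparisons, and no other of the 10 genes was.

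The summed mRNA of the 8 transporter and enzyme genes rose beyond its spread in each genotype and cell type. In TPM, which are per transcript length and can be added over genes, the sum was 2060, 1414 and 2015 in the Cat-Tg CD8+ pre-tx libraries and 5010, 4934 and 5303 post-tx. It was 1602, 1820 and 1727 against 5063, 6267 and 5504 in WT CD8+. It was 1993, 1465 and 2390 against 3649, 3948 and 3973 in Cat-Tg CD4+, and 2285, 2573 and 1971 against 6032, 4258 and 4416 in WT CD4+. No post-tx sum lay below a pre-tx sum of its own genotype and cell type. The sum is carried by abundant genes: over the 24 libraries the median level was 1276 TPM for Ldha, 791 for Aldoa and 645 for Pkm, against 90.0 for Pgk1, 83.8 for Pfkp, 36.4 for Myc, 21 for Slc2a1, 11.7 for Hif1a, 2.78 for Hk2 and 1.57 for Tpi1.

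Other gene lists moved with these comparisons. The summed level of 15 proliferation genes was 518 to 944 CPM in the pre-tx libraries and 1870 to 6297 CPM in the post-tx libraries, and 14 of the 15 rose in Cat-Tg CD8+, 14 in WT CD8+, 14 in Cat-Tg CD4+ and 15 in WT CD4+. B cell genes fell from 11458 to 14993 CPM pre-tx to 500 to 835 CPM post-tx in WT CD8+ and from 14392 to 15368 CPM to 708 to 799 CPM in WT CD4+. In Cat-Tg they went from 1048 to 2450 CPM to 767 to 797 CPM in CD8+ and from 2180 to 3154 CPM to 1606 to 3314 CPM in CD4+. Of the 12 B cell genes, 9 were called lower in Cat-Tg CD8+ (median log2 fold change -3.84), 12 in WT CD8+ (-7.32), 11 in Cat-Tg CD4+ (-4.27) and 12 in WT CD4+ (-7.49). Myeloid genes (11) rose in Cat-Tg CD4+ from 1560 to 2259 CPM to 5631 to 6558 CPM, with 8 of the 11 called higher. In WT CD8+, 7 of the 11 fell, from a sum of 1543 to 3144 CPM to 193 to 309 CPM, while 4 rose and 3 fell in Cat-Tg CD8+ and 1 fell in WT CD4+. Of 9 erythroid genes, 7 rose in Cat-Tg CD4+ (1332 to 2117 CPM against 4555 to 27091 CPM), 7 fell in WT CD8+ (3328 to 12343 CPM against 254 to 2059 CPM), 8 fell in WT CD4+ (9245 to 26921 CPM against 649 to 1103 CPM) and none was called in Cat-Tg CD8+. The part of these in the changes of the 10 genes was not tested.

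**Figure D1:**
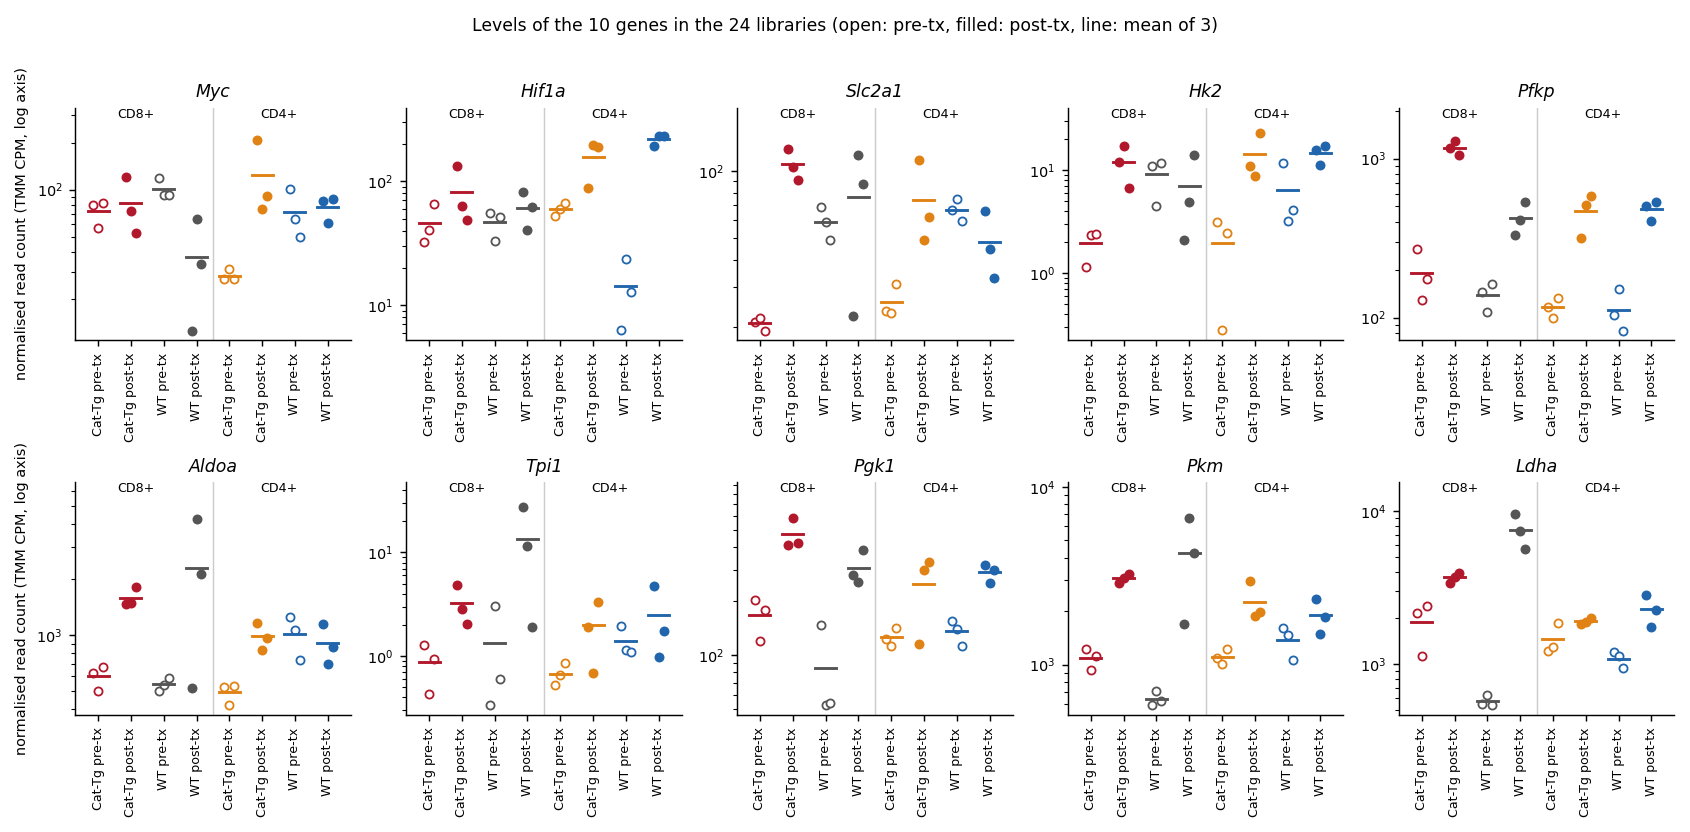
Normalised read count (TMM CPM, log axis) of each of the 10 genes in the 24 libraries, by genotype, cell type and time; points are libraries, open before and filled after transplantation, and lines are means of 3. The filled points of Pfkp lie above the open points of the same genotype and cell type in all 4 pairs, while those of Myc do so in Cat-Tg CD4+ alone.

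Myc (chr15:61985391-61990374, GRCm38, GENCODE M21), which encodes the growth-promoting transcription factor, rose in Cat-Tg CD4+ cells. Its normalised read counts were 27, 31.2 and 26.7 CPM in the Cat-Tg CD4+ pre-tx libraries and 207, 75.4 and 91.1 CPM post-tx. All post-tx values were above all pre-tx values, and replicate 1 was the highest. The log2 fold change was 1.82 ± 0.371 (SE) with an adjusted p of 0.00146, and the call was kept without each of the 6 libraries in turn, at 1.20 without post-tx replicate 1. The fold changes were fitted with the 12 libraries of a cell type scaled together, whereas the CPM were scaled over all 24. In Cat-Tg CD4+ the latter puts post-tx over pre-tx 0.33 higher on the log2 scale for every gene, and the shifts were -0.01 in Cat-Tg CD8+, -0.12 in WT CD8+ and -0.14 in WT CD4+. Overlap between groups was read in CPM unless TPM is named.

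In CD8+ cells the level of Myc went in no common direction. It was 79.7, 56.8 and 82.4 CPM pre-tx and 120, 73.2 and 52.7 CPM post-tx in Cat-Tg, which overlapped (log2 fold change 0.18 ± 0.507, adjusted p = 0.816). In WT CD8+ it was 119, 93.0 and 92.2 CPM pre-tx and 12.6, 64.7 and 33.3 CPM post-tx. These did not overlap, but the difference of -1.34 ± 0.516 on the log2 scale missed the threshold (adjusted p = 0.073). It passed without WT CD8+ post-tx replicate 1 (adjusted p = 0.0399) or replicate 2 (log2 fold change -2.22, adjusted p = 0.00423), and by limma-voom (adjusted p = 0.0308). WT CD4+ values were 101, 64.8 and 50.0 CPM pre-tx and 84.3, 61.5 and 87.3 CPM post-tx, with a log2 fold change of 0.24 ± 0.359 and an adjusted p of 0.64. In TPM the WT CD4+ values were higher post-tx without overlap, at 47.0, 35.6 and 31.4 TPM against 68.0, 49.9 and 59.4 TPM. Over the 8 groups the mean of Myc ran from 28.3 CPM in Cat-Tg CD4+ pre-tx to 125 CPM in Cat-Tg CD4+ post-tx, and every pair of neighbours in that order overlapped. The order depends on the scale: in TPM the highest mean was that of WT CD8+ pre-tx (81.1 TPM), the lowest that of WT CD8+ post-tx (11 TPM), no group kept its rank, and 1 pair of neighbours, Cat-Tg CD8+ pre-tx (31.4 TPM) and Cat-Tg CD4+ pre-tx (14.5 TPM), did not overlap.

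Hif1a (chr12:73901375-73947530), the gene of the oxygen-regulated subunit of HIF, rose in CD4+ cells of both genotypes. In WT CD4+ its level was 6.28, 23.6 and 12.7 CPM pre-tx and 193, 233 and 233 CPM post-tx. The log2 fold change of 4.08 ± 0.431 (adjusted p = 7.86e-06) was the largest of the 10 genes in any of the 4 comparisons and was kept without each library in turn (3.68 to 4.67, the highest without pre-tx replicate 2). Its pre-tx libraries were 3 of the 6 whose labels did not hold, with B cell genes at 14392 to 15368 CPM. In Cat-Tg CD4+ the level was 52.2, 60.2 and 66.4 CPM pre-tx and 87.9, 196 and 189 CPM post-tx. The groups did not overlap, the log2 fold change was 1.07 ± 0.384 and the adjusted p was 0.0333. That call was lost without any of the 3 pre-tx libraries or post-tx replicates 2 and 3 (adjusted p 0.0544 to 0.113).

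In CD8+ cells Hif1a overlapped between the times in CPM. It was 32.1, 40.7 and 65.6 CPM against 133, 63.1 and 48.4 CPM in Cat-Tg (log2 fold change 0.84 ± 0.476, adjusted p = 0.218). In WT it was 55.6, 33.1 and 51.5 CPM against 81.6, 40.5 and 62.2 CPM (0.51 ± 0.474, adjusted p = 0.492). In TPM the WT CD8+ values were lower post-tx without overlap, at 17.0, 17.7 and 23.7 TPM against 10.8, 6.44 and 11.2 TPM. The order of the 8 means put WT CD4+ post-tx first at 220 ± 23.1 CPM (SD, n = 3), Cat-Tg CD4+ post-tx second at 158 ± 60.5 CPM, and WT CD4+ pre-tx last at 14.2 ± 8.77 CPM. The last group did not overlap with its neighbour, and the other neighbours overlapped.

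Slc2a1 (chr4:119108711-119137983) encodes GLUT1, the main glucose carrier of activated T cells, and rose in both cell types of Cat-Tg. It went from 21, 21.9 and 19.1 CPM to 125, 104 and 91.4 CPM in Cat-Tg CD8+, a log2 fold change of 2.38 ± 0.511 (adjusted p = 0.00706) that was kept without each library in turn. It went from 23.6, 23.1 and 31.1 CPM to 112, 48.9 and 62.2 CPM in Cat-Tg CD4+, a log2 fold change of 1.20 ± 0.349 (adjusted p = 0.0122). The CD4+ call was lost without post-tx replicate 1, the highest library (0.74, adjusted p = 0.0645). In WT the times overlapped in CPM: 68.9, 58.9 and 49.0 CPM against 22.3, 118 and 87.6 CPM in CD8+ (0.49 ± 0.486, adjusted p = 0.52), and 66.7, 74.7 and 59.6 CPM against 65.9, 44.6 and 33.2 CPM in CD4+ (-0.34 ± 0.344, adjusted p = 0.477). In TPM the WT CD8+ values were lower post-tx without overlap, at 31.1, 29.6 and 27.2 TPM against 4.82, 20.3 and 20.4 TPM. The WT pre-tx means, 59.0 and 67.0 CPM, were above both Cat-Tg pre-tx means, 20.7 and 25.9 CPM.

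Hk2 (chr6:82725025-82774454) encodes hexokinase 2, which traps glucose in the cell by phosphorylation, and was measured at low levels, with 6 to 1015 estimated counts per library. It rose in Cat-Tg CD8+ from 1.14, 2.35 and 2.39 CPM to 12, 17.1 and 6.69 CPM, and in Cat-Tg CD4+ from 3.15, 0.279 and 2.42 CPM to 10.9, 8.65 and 22.9 CPM. Neither pair of groups overlapped in CPM. In TPM both did, at 0.603, 3.18 and 0.293 against 4.14, 2.6 and 2.18 in CD8+, and 2.96, 0.554 and 1.17 against 2.43, 4.32 and 5.43 in CD4+. The log2 fold changes were 2.60 ± 0.792 (adjusted p = 0.0402) and 2.51 ± 0.712 (adjusted p = 0.0104). The first was lost without any 1 of the 6 libraries except post-tx replicate 3 (adjusted p 0.0901 to 0.138), and the second was kept in each omission. In WT CD8+ the levels of 10.8, 4.51 and 11.7 CPM pre-tx and 2.09, 4.84 and 14 CPM post-tx overlapped (-0.24 ± 0.744, adjusted p = 0.854). In WT CD4+ the levels were 11.7, 3.22 and 4.11 CPM and 15.6, 11.1 and 17.0 CPM (1.33 ± 0.681, adjusted p = 0.162), a difference that limma-voom called (1.6, adjusted p = 0.0462). In TPM neither WT pair overlapped. Post-tx was lower in CD8+ (4.69, 3.78 and 6.37 against 1.82, 0.46 and 2.11) and higher in CD4+ (1.79, 2.32 and 2.98 against 7.43, 9.14 and 10.2).

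Pfkp (chr13:6579768-6648777) encodes the platelet-type subunit of phosphofructokinase, which catalyses the step that commits sugar to glycolysis. Its level was 270, 128 and 175 CPM in Cat-Tg CD8+ pre-tx and 1161, 1300 and 1048 CPM post-tx, and 144, 109 and 163 CPM against 329, 412 and 533 CPM in WT CD8+. In CD4+ cells it was 116, 100 and 132 CPM against 317, 509 and 581 CPM in Cat-Tg, and 103, 151 and 82.8 CPM against 503, 404 and 537 CPM in WT. In CPM the times overlapped in none of the 4. In TPM those of WT CD8+ did, at 77.3, 69.9 and 94.3 TPM against 80.4, 87.2 and 136 TPM. The log2 fold changes were 2.63 ± 0.374 (adjusted p = 0.00041), 1.73 ± 0.362 (0.00271), 1.68 ± 0.271 (0.00026) and 2.23 ± 0.276 (3.55e-05) in that order. All 4 calls were kept without each library in turn. Cat-Tg CD8+ post-tx cells stood first of the 8 groups at 1170 ± 126 CPM (SD, n = 3), with no overlap with WT CD4+ post-tx cells, the next group, at 481 ± 69.0 CPM.

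Aldoa (chr7:126795234-126800751, with a second gene record of that symbol at chr7:126800790-126809108) encodes aldolase A, which cuts the phosphorylated sugar into 3-carbon pieces. It was 628, 498 and 672 CPM in Cat-Tg CD8+ pre-tx and 1474, 1497 and 1816 CPM post-tx, which did not overlap, with a log2 fold change of 1.43 ± 0.51 and an adjusted p of 0.07. It was called with no filter on low counts (adjusted p = 0.0136). In WT CD8+ it was 500, 538 and 590 CPM pre-tx and 522, 4241 and 2138 CPM post-tx. Replicate 1 stayed within the pre-tx range while the other two post-tx libraries lay above it. That change of 2.21 ± 0.523 was called (adjusted p = 0.00624) and was lost without post-tx replicate 2, the highest library (1.21, adjusted p = 0.0516). In Cat-Tg CD4+ the gene went from 525, 418 and 532 CPM to 1167, 832 and 961 CPM (0.68 ± 0.252, adjusted p = 0.0381), a call lost in each omission except that of post-tx replicate 2 (adjusted p 0.0578 to 0.135). In WT CD4+ it was 1249, 1069 and 739 CPM against 1145, 702 and 860 CPM (-0.04 ± 0.251, adjusted p = 0.914).

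Tpi1 (chr6:124810586-124814296) encodes triosephosphate isomerase, which interconverts the pieces that aldolase makes. It was listed at 0.256 to 13.6 TPM and 10 to 402 estimated counts per library, against 244 to 1716 TPM for Aldoa, the enzyme before it. Of its processed copies, 1 that shares 7.55% of the 31-base words of the main transcript held up to 33 counts and up to 74.3% of the joint counts of the gene and the copy in 1 library. The values of Tpi1 are uncertain as a measure of the gene. They were 1.29, 0.427 and 0.928 CPM against 4.82, 2.82 and 2.06 CPM in Cat-Tg CD8+, and 0.338, 3.06 and 0.596 CPM against 27.2, 11.5 and 1.91 CPM in WT CD8+, where the call (log2 fold change 3.5 ± 1.05, adjusted p = 0.0251) was lost without pre-tx replicates 1 or 3 or post-tx replicates 1 or 2 (adjusted p 0.0532 to 0.181). Without pre-tx replicate 2 the value was 4.92. The times did not overlap in Cat-Tg CD8+, but the change was not called (1.88 ± 0.999, adjusted p = 0.19). In CD4+ cells the times overlapped in both genotypes (1.20 ± 0.821, adjusted p = 0.242 in Cat-Tg, and 0.99 ± 0.807, adjusted p = 0.376 in WT).

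Pgk1 (chrX:106187100-106203699) encodes phosphoglycerate kinase 1, the first step of the pathway that makes ATP. It was 202, 120 and 179 CPM against 415, 585 and 424 CPM in Cat-Tg CD8+ (log2 fold change 1.52 ± 0.438, adjusted p = 0.0329), and 147, 52.3 and 53.6 CPM against 281, 255 and 388 CPM in WT CD8+ (1.97 ± 0.444, adjusted p = 0.00458). In WT CD4+ it was 156, 139 and 113 CPM against 319, 252 and 301 CPM (1.23 ± 0.304, adjusted p = 0.00826). These 3 pairs of groups did not overlap in CPM. In TPM that of WT CD8+ did, at 116, 44.9 and 45.1 TPM against 105, 81.7 and 162 TPM. The WT CD8+ call was kept in each omission (2.68 without pre-tx replicate 1), the Cat-Tg CD8+ call was lost without any 1 library except post-tx replicate 3 (adjusted p 0.0582 to 0.122), and the WT CD4+ call was lost without pre-tx replicate 3 (0.93, adjusted p = 0.0851). In Cat-Tg CD4+ the levels of 123, 113 and 142 CPM pre-tx and 116, 301 and 332 CPM post-tx overlapped, since post-tx replicate 1 was low (0.65 ± 0.301, adjusted p = 0.0893). Without that library the value was 0.98 (adjusted p = 0.0025), and without the 6 WT pre-tx libraries it was 0.97 (adjusted p = 0.0204). It was also called with DESeq2's size factors, by DESeq2 and with no filter (adjusted p 0.00867 to 0.0256). The processed copies Pgk1-rs7 and Gm5537 share 68.2% and 68.1% of the 31-base words of the main transcript, and Pgk1-rs7 held up to 18.1% of their joint counts in 1 library, so that reads may be split between them.

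Pkm (chr9:59656368-59679375) encodes the muscle-type pyruvate kinase, which makes pyruvate. It was 1229, 927 and 1125 CPM against 2872, 3074 and 3248 CPM in Cat-Tg CD8+ (log2 fold change 1.5 ± 0.4, adjusted p = 0.0228) and 590, 711 and 626 CPM against 1689, 6704 and 4274 CPM in WT CD8+ (2.85 ± 0.42, adjusted p = 0.000203). It was 1095, 1007 and 1228 CPM against 2945, 1866 and 1967 CPM in Cat-Tg CD4+ (0.70 ± 0.252, adjusted p = 0.0326). In those 3 the times did not overlap. In WT CD4+ the values of 1613, 1459 and 1068 CPM and 2340, 1488 and 1849 CPM overlapped (0.59 ± 0.251, adjusted p = 0.0986, and 0.0466 by limma-voom). In TPM they did not, at 614, 675 and 505 TPM against 1438, 1000 and 1024 TPM. The WT CD8+ call was kept in each omission, at 2.13 without post-tx replicate 2. The Cat-Tg CD8+ call was lost without any 1 library except post-tx replicate 3 (adjusted p 0.0566 to 0.0909), and the Cat-Tg CD4+ call without pre-tx replicates 1 or 2 or post-tx replicate 1 (adjusted p 0.0935 to 0.127).

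The mRNA of Pkm was almost wholly of the M2 form. The gene has a pair of 167-base exons of which a transcript keeps either the upstream (chr9:59675029-59675195, M1) or the downstream (chr9:59675568-59675734, M2); both are exon 9 of 11 in their transcript. Pkm-201, which has the downstream exon, held 96.5% ± 0.911 (SD, n = 3) of the estimated counts of the gene in Cat-Tg CD8+ pre-tx and 96.9% post-tx, 97.4% and 95.7% in Cat-Tg CD4+, and 97.7% and 96.3% in WT CD8+ and WT CD4+ post-tx. It was lowest in the WT pre-tx groups, at 93.1% in CD8+ (91.0 to 95.5%) and 92.8% in CD4+ (92.3 to 93.2%). Pkm-202, with the upstream exon, held 2.15 to 6.76% in the group means. These shares are kallisto's division of reads between transcripts that share most of their sequence, and the shares were not tested.

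Ldha (chr7:46841475-46855627) encodes lactate dehydrogenase A, which makes lactate from pyruvate. It had the highest median TPM of the 10 genes. In WT CD8+ it went from 547, 634 and 541 CPM to 9494, 7408 and 5608 CPM, a log2 fold change of 3.83 ± 0.364 (adjusted p = 7.87e-06), and in WT CD4+ from 1195, 1128 and 940 CPM to 2832, 1739 and 2274 CPM, a log2 fold change of 1.20 ± 0.235 (adjusted p = 0.0017). Both calls were kept without each library in turn. In Cat-Tg CD8+ it was 2162, 1136 and 2401 CPM against 3410, 3733 and 3930 CPM, which did not overlap but missed the threshold (0.98 ± 0.328, adjusted p = 0.058, and 0.0268 by limma-voom). In Cat-Tg CD4+ it was 1220, 1291 and 1859 CPM against 1827, 1893 and 2013 CPM, which overlapped (0.06 ± 0.232, adjusted p = 0.852). WT CD8+ post-tx cells stood first of the 8 groups at 7503 ± 1945 CPM (SD, n = 3), with no overlap with Cat-Tg CD8+ post-tx cells at 3691 ± 262 CPM, and WT CD8+ pre-tx cells stood last at 574 ± 52.4 CPM.

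**Figure D2:**
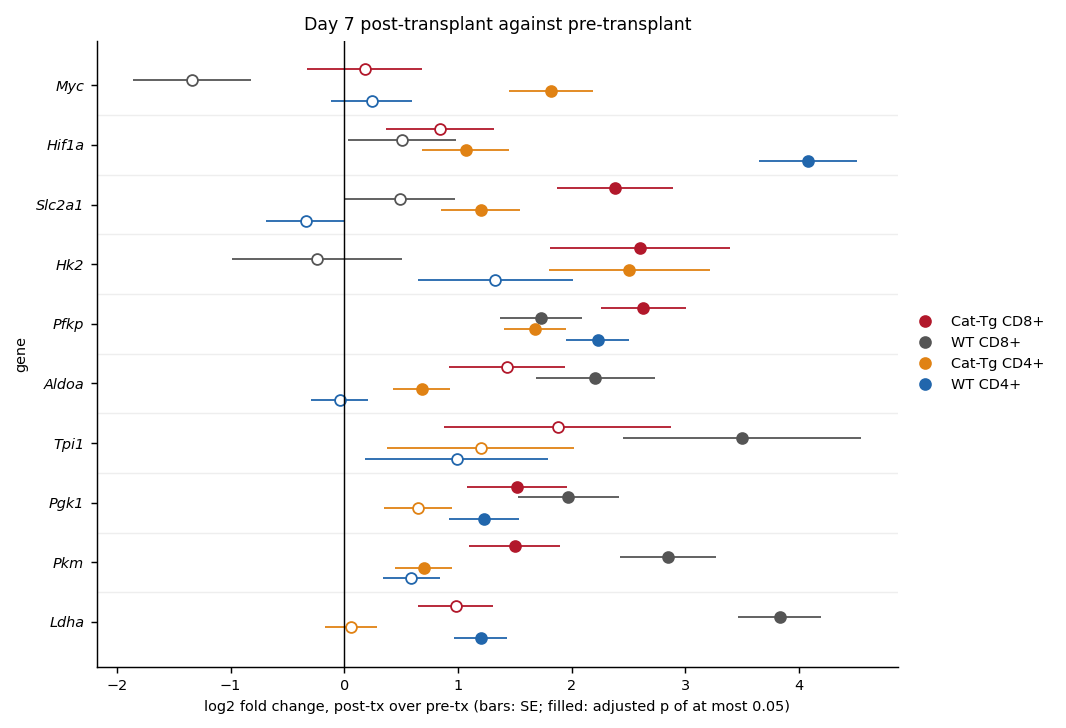
Log2 fold change, day 7 post-tx over pre-tx, of the 10 genes in the 4 combinations of genotype and cell type; bars are SE and filled points passed an adjusted p of at most 0.05. Pfkp is filled in all 4 rows of points, between 1.68 and 2.63, while Myc and Hk2 are filled in Cat-Tg points alone and Tpi1 in WT CD8+ alone.

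Across the 4 comparisons, 36 of the 40 pairs of group means were higher post-tx in CPM. Those that were not were Myc and Hk2 in WT CD8+ and Slc2a1 and Aldoa in WT CD4+. In TPM the number was 36 as well, and the pairs that were not higher were Myc, Hif1a, Slc2a1 and Hk2 in WT CD8+. The share of all genes higher post-tx on either scale was not counted. The CPM scaling also favours post-tx in Cat-Tg CD4+, by 0.33 on the log2 scale for every gene. In the fits, positive log2 fold changes were found for 10 genes in Cat-Tg CD8+, 8 in WT CD8+, 10 in Cat-Tg CD4+ and 8 in WT CD4+. The medians over all genes were negative there, at -0.26, -0.23, -0.38 and -0.14.

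The steps of glycolysis between the 10 genes were read from a list of 18 other glycolysis genes. In Cat-Tg CD8+, 5 of the 18 rose and 1 fell; in WT CD8+, 6 rose and 3 fell; in Cat-Tg CD4+, 8 rose and 3 fell; and in WT CD4+, 4 rose and 2 fell. Their median log2 fold changes were 1.05, -0.74, 0.76 and 0.05 beside the medians over all genes given above. Gapdh, which encodes the dehydrogenase that follows triosephosphate isomerase, rose in all 4 comparisons (2.58, 3.48, 1.24 and 1.00 on the log2 scale), as did the mutase gene Pgam1 (1.71, 1.66, 1.66 and 0.99). The enolase gene Eno1 rose in Cat-Tg CD8+ (1.57), WT CD8+ (2.86) and Cat-Tg CD4+ (0.73) and was at 0.45 in WT CD4+ (adjusted p = 0.141). The transporter gene Slc2a3 rose in Cat-Tg CD8+ (2.66), Cat-Tg CD4+ (1.32) and WT CD4+ (1.61) and was at 0.45 in WT CD8+ (adjusted p = 0.369). Ldhb, whose enzyme favours the step from lactate back to pyruvate, fell by 5.99 in Cat-Tg CD8+, by 5.28 in WT CD8+ and by 3.45 in Cat-Tg CD4+ on the log2 scale and was at -0.76 in WT CD4+ (adjusted p = 0.554). Its level in CD8+ post-tx cells, 0 to 0.403 CPM, was near that of 3 counts, where a fitted fold change depends on the prior count.

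Other isozyme genes of the list had the following values. Hk3, the gene of a hexokinase found mainly in myeloid cells, went from 3.67, 7.77 and 5.21 CPM to 321, 220 and 237 CPM in Cat-Tg CD4+ (5.23 on the log2 scale), where myeloid genes rose too, and was at 2.07, -1.42 and 0.40 in Cat-Tg CD8+, WT CD8+ and WT CD4+, none of them called. Hk1, another hexokinase gene, rose in Cat-Tg CD8+ (2.24), Cat-Tg CD4+ (1.27) and WT CD4+ (1.04) and was at 1.27 in WT CD8+ (adjusted p = 0.0818). Eno3 rose in WT CD8+ (2.52) and fell by 1.15 in Cat-Tg CD4+ and by 3.04 in WT CD4+. Aldoc fell by 4.34 in WT CD8+, from 8.69 to 32.2 CPM to 0 to 1.87 CPM. In Cat-Tg CD4+ Pklr went from 0 to 0.419 CPM to 3.65 to 9.42 CPM and was called higher.

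Genes for lactate export, for the control of pyruvate use and for the PFKFB enzymes, which set the level of an activator of phosphofructokinase, moved in both directions. Of 15 such genes, 2 rose and 2 fell in Cat-Tg CD8+, 4 and 3 in WT CD8+, 1 and 3 in Cat-Tg CD4+, and 4 and 2 in WT CD4+, with medians of 0.01, 0.69, 0.05 and 0.42. Slc16a3, which encodes the lactate exporter MCT4, rose in CD8+ cells (3.98 in Cat-Tg and 3.01 in WT), and was at 0.82 in Cat-Tg CD4+ (adjusted p = 0.229) and 0.12 in WT CD4+ (adjusted p = 0.878). Slc16a1, which encodes MCT1, rose by 2.53 in WT CD4+. Pdk1, which encodes a kinase that holds pyruvate back from the mitochondrion and is a textbook target of HIF1A, fell by 3.79 in Cat-Tg CD8+, by 2.95 in WT CD8+ and by 2.96 in Cat-Tg CD4+, and was at -0.72 in WT CD4+ (adjusted p = 0.215). Pdk2, of the same family, fell by 2.62 in Cat-Tg CD8+, by 1.66 in Cat-Tg CD4+ and by 2.69 in WT CD4+. Pfkfb4 went from 35.1, 56.7 and 21.3 CPM to 0.473, 0.123 and 0.478 CPM in WT CD8+ (log2 fold change -6.55) and fell by 2.64 in WT CD4+, whereas it was at 1.83 in Cat-Tg CD8+ (adjusted p = 0.109) and -0.12 in Cat-Tg CD4+ (adjusted p = 0.877). Bsg, which encodes a chaperone of the lactate carriers, rose in Cat-Tg CD8+ (1.39), WT CD8+ (2.89) and Cat-Tg CD4+ (0.81).

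**Figure D3:**
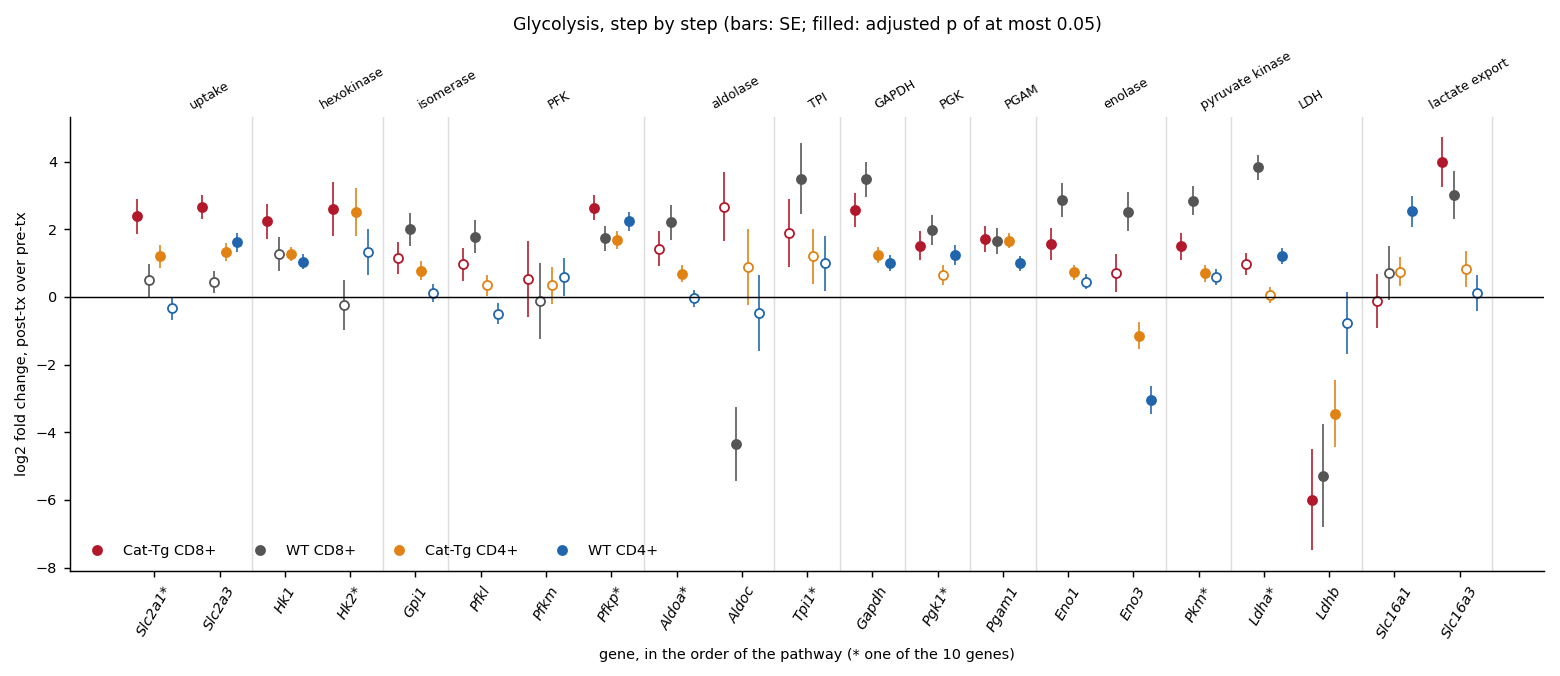
Log2 fold change, post-tx over pre-tx, along the glycolysis pathway for the 8 transporter and enzyme genes and some of the other genes of each step, with the lactate exporters at the right; bars are SE and filled points passed an adjusted p of at most 0.05. Gapdh and Pgam1 are filled in all 4 colours like Pfkp, and Ldhb lies between -5.99 and -0.76.

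The partners of the regulators were read in the same way. Of the HIF1A partners and oxygen-sensing genes, 2 of 11 tested rose in Cat-Tg CD8+, 3 of 11 in WT CD8+, 2 of 12 in Cat-Tg CD4+ and 3 of 12 in WT CD4+, and 1 fell in each CD4+ comparison. The medians were 0.26, -0.04, 0.23 and 0.28. Epas1, which encodes the related subunit HIF2A, rose in all 4 (5.64, 3.02, 4.28 and 3.61). Vhl, which encodes the factor that marks HIF1A for degradation, was called in none (0.91, -0.04, 0.60 and -0.03), nor was Egln3, the gene of a prolyl hydroxylase that acts on HIF1A (-2.71, -3.12, -1.32 and -0.11). Elob and Eloc encode partners of VHL. Elob rose in Cat-Tg CD8+ (1.17) and WT CD8+ (2.54), and Eloc rose in WT CD8+ (2.15) and WT CD4+ (1.81) and fell by 1.07 in Cat-Tg CD4+. Arnt, the gene of the DNA-binding partner of HIF1A, rose in Cat-Tg CD4+ (0.97), and Cul2 in WT CD4+ (1.32). Of the MYC network genes, 2 of 10 tested rose in Cat-Tg CD8+, 1 rose and 2 fell in WT CD8+, 3 of 11 rose and 1 fell in Cat-Tg CD4+, and 2 of 11 rose and 1 fell in WT CD4+, with medians of 0.64, -0.68, 0.49 and -0.08. Mxd3, which encodes a MAX partner that represses transcription, rose in all 4 (4.27, 7.10, 2.63 and 2.61), and Max was called in none (0.63, 0.29, 0.02 and 0.78). Mxd4, the gene of another MAX partner, rose in Cat-Tg CD4+ (0.84, adjusted p = 0.0184) and was at 1.45 in Cat-Tg CD8+ (adjusted p = 0.0689), -0.52 in WT CD8+ (adjusted p = 0.51) and -0.08 in WT CD4+ (adjusted p = 0.836). Mxd1 rose in both CD4+ comparisons (1.96 in Cat-Tg and 0.99 in WT). Mlxip rose in Cat-Tg CD8+ (from a mean of 14.6 CPM to 41.3 CPM) and fell by 1.38 in WT CD8+, and Mga fell by 2.26 in WT CD8+ and by 1.21 in Cat-Tg CD4+. Mycl was at 3.42 to 4.98 CPM pre-tx and 0 to 0.0275 CPM post-tx in WT CD4+, where it was called lower.

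Other known targets of these factors were read from separate lists. Of other targets of HIF1A, none rose and 1 of 11 fell in Cat-Tg CD8+, 3 rose and 2 fell in WT CD8+, and, of 13, 1 rose and 2 fell in Cat-Tg CD4+ and 2 rose and 1 fell in WT CD4+, with medians of -1.02, -0.35, -0.31 and 0.18. Bnip3, a mitophagy gene, fell by 4.76 in Cat-Tg CD8+ and by 1.57 in Cat-Tg CD4+ and was at -2.49 (adjusted p = 0.12) and -0.89 (adjusted p = 0.227) in WT. Ddit4, a stress gene that restrains growth signalling, rose in WT CD8+ (2.41), Cat-Tg CD4+ (2.22) and WT CD4+ (1.49), Higd1a in both WT comparisons (2.15 and 1.32) and the cytokine gene Mif in WT CD8+ (2.62). Adm fell by 3.70 in WT CD8+ and by 3.49 in WT CD4+, Kdm3a by 2.81 in WT CD8+ and Bnip3l by 0.96 in Cat-Tg CD4+. Of 20 targets of MYC in growth, 2 rose in Cat-Tg CD8+; 3 rose and 1 fell in WT CD8+; 8 rose and 2 fell in Cat-Tg CD4+; and 6 rose in WT CD4+, with medians of 0.37, 0.77, 0.84 and 0.27. The median over all genes was below 0 in each of the 4. Cad (pyrimidine synthesis) rose by 1.84 in Cat-Tg CD4+, and rose from 52.7 to 79.1 CPM to 231 to 297 CPM in Cat-Tg CD8+ (adjusted p = 0.0307). The amino acid carrier gene Slc7a5 rose by 1.99 in Cat-Tg CD4+, and Slc1a5, a glutamine carrier gene, in Cat-Tg CD8+ (1.68), Cat-Tg CD4+ (0.90) and WT CD4+ (0.77). In WT CD8+ the cell cycle kinase gene Cdk4 (1.98) and the serine-to-glycine enzyme genes Shmt1 (2.04) and Shmt2 (2.17) rose. Eif4e rose in WT CD4+ (1.42). In WT CD4+ the nucleolar genes Ncl and Npm1 rose by 1.87 and 1.71. In Cat-Tg CD4+ Npm1 fell by 0.83 (adjusted p = 0.0409) and Ncl was at 0.14 (adjusted p = 0.666). The part of MYC or HIF1A in the changes of these lists was not tested.

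Cat-Tg and WT were compared at the same time and in the same cell type. On day 7 post-tx none of the 10 genes was called in CD8+ or in CD4+ cells by edgeR, where 1.67% and 10.2% of all genes were called. At an unadjusted p under 0.05 there were 3 in CD8+ (Ldha, Pfkp and Tpi1) and 0 in CD4+. The share of all genes at that unadjusted threshold is not given here. In CD8+ DESeq2 called 2, Pfkp and Ldha (adjusted p = 0.0199 and 0.0219), and limma-voom called 1, Pfkp (adjusted p = 0.0433), whereas both called 0 in CD4+. Pfkp at 1161, 1300 and 1048 CPM in Cat-Tg CD8+ post-tx lay above the WT values of 329, 412 and 533 CPM (log2 fold change 1.37 ± 0.358, adjusted p = 0.063). Ldha at 3410, 3733 and 3930 CPM lay below the WT values of 9494, 7408 and 5608 CPM (-1.10 ± 0.329, adjusted p = 0.0941). In TPM, Myc (59.7, 32.7 and 24.8 against 4.33, 17.4 and 11.2) was higher in Cat-Tg without overlap. So were Slc2a1 (39.4, 29.9 and 26.1 against 4.82, 20.3 and 20.4) and Hk2 (4.14, 2.6 and 2.18 against 1.82, 0.46 and 2.11). Pgk1 (225, 288 and 215 against 105, 81.7 and 162) and Pfkp were higher too, as in CPM. Ldha was lower without overlap, and the others overlapped. These TPM were not tested. The share of all genes without overlap in TPM was not counted. Pfkp passed the threshold without Cat-Tg replicate 3 or any 1 of the WT libraries (adjusted p 0.0372 to 0.0453), and Myc passed without WT replicate 2 (1.84 against 1.07 with all, adjusted p = 0.0478). Without the 6 WT pre-tx libraries the count was 0 in both cell types as well.

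In CD4+ post-tx cells the fitted differences of the 10 genes lay between -0.72 (Hif1a, SE 0.381) and 0.47 (Myc, SE 0.36) and all ranges in CPM overlapped. In TPM, Hif1a (33.5, 54.7 and 50.6 in Cat-Tg against 72.7, 75.8 and 66.1 in WT) was lower in Cat-Tg without overlap. So were Hk2 (2.43, 4.32 and 5.43 against 7.43, 9.14 and 10.2), Pgk1 (67.4, 223 and 228 against 268, 234 and 229) and Ldha (1241, 1659 and 1639 against 2796, 1916 and 2046). The TPM were not tested, and the share of all genes without overlap in TPM was not counted. Myeloid genes stood apart in these libraries, at 5631 to 6558 CPM in Cat-Tg against 998 to 1538 CPM in WT, and erythroid genes, at 4555 to 27091 CPM against 649 to 1103 CPM. Their part was not tested.

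Before transplantation, the comparison of genotypes rests on the WT pre-tx libraries, whose labels the marker genes contradict. In the libraries labelled CD8+ pre-tx, 1 of the 10 genes was called, beside 8.99% of all genes: Ldha was higher in Cat-Tg (2162, 1136 and 2401 CPM) than in WT (547, 634 and 541 CPM), by 1.75 ± 0.335 on the log2 scale (adjusted p = 0.00433, kept without each library in turn). DESeq2 also called Slc2a1 (-1.49, adjusted p = 0.0295) and Hk2 (-2.18, adjusted p = 0.0194) lower in Cat-Tg. Without WT CD8+ pre-tx replicate 1, Pgk1 was called higher in Cat-Tg (1.70 against 0.99 with all, adjusted p = 0.0304).

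In the libraries labelled CD4+ pre-tx, 4 of the 10 were called beside 20.4% of all genes. Hif1a was higher in Cat-Tg (2.30 ± 0.401, adjusted p = 0.000886, kept in each omission, at 1.69 without WT replicate 1 and 2.89 without WT replicate 2), with 52.2 to 66.4 CPM against 6.28 to 23.6 CPM. Myc (-1.12 ± 0.365, adjusted p = 0.0404), Slc2a1 (-1.14 ± 0.349, adjusted p = 0.0297) and Aldoa (-0.82 ± 0.253, adjusted p = 0.0306) were lower in Cat-Tg, and in each of the 3 the groups did not overlap. The Myc call was kept only without WT replicate 3, and was lost in the other omissions (adjusted p 0.0618 to 0.106) and by limma-voom (adjusted p = 0.0642). That of Slc2a1 was lost without Cat-Tg replicates 1 or 2 or WT replicate 2 (adjusted p 0.0816 to 0.103), and that of Aldoa without any of the Cat-Tg libraries or WT replicate 2 (adjusted p 0.0559 to 0.119). Ldha was called higher in Cat-Tg without Cat-Tg replicate 1 (0.79, adjusted p = 0.0459) and by limma-voom (0.63, adjusted p = 0.0462). B cell genes were at 14392 to 15368 CPM in the WT libraries and at 2180 to 3154 CPM in those of Cat-Tg.

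**Figure D4:**
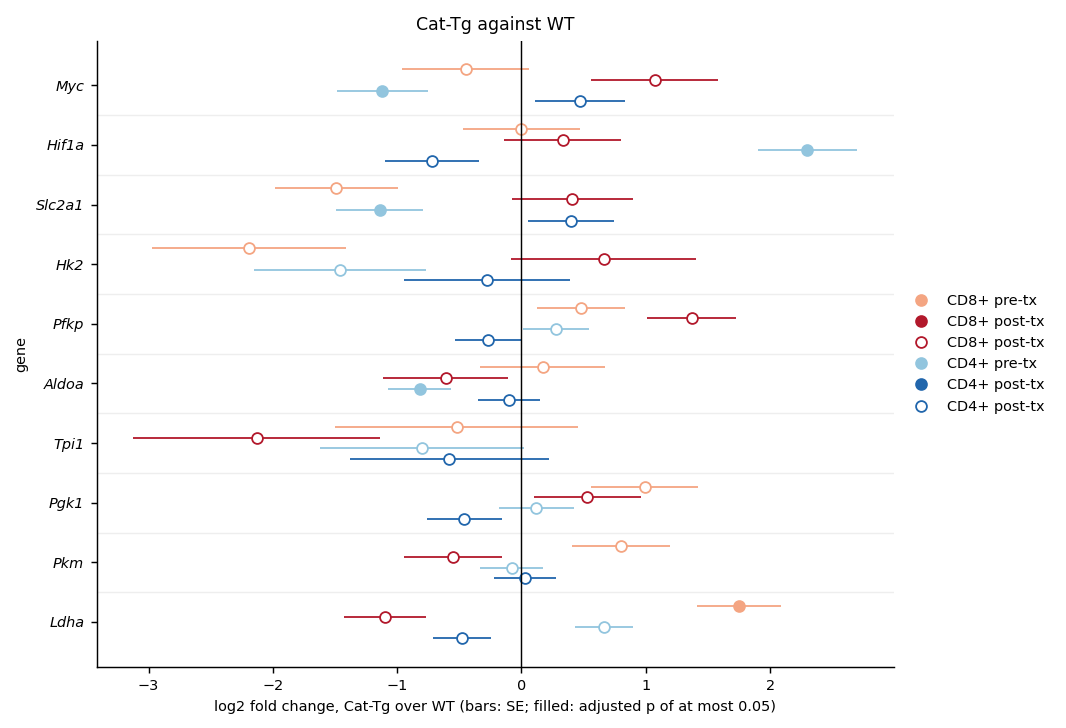
Log2 fold change, Cat-Tg over WT, of the 10 genes in each cell type and at each time; bars are SE and filled points passed an adjusted p of at most 0.05. No post-tx point is filled, and the filled pre-tx points are those of Ldha (1.75) in CD8+ and of Hif1a (2.30), Myc (-1.12), Slc2a1 (-1.14) and Aldoa (-0.82) in CD4+.

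Whether the change on transplantation differed between the genotypes was tested as an interaction, which uses the WT pre-tx libraries. In CD8+, 1 of the 10 was called beside 10.7% of all genes: the change of Ldha was smaller in Cat-Tg by 2.86 ± 0.469 on the log2 scale (interaction -2.86, adjusted p = 0.0015), in each of the 12 omissions. Other genes passed only without a WT CD8+ post-tx library: without replicate 1 Slc2a1 (1.68, adjusted p = 0.0204) and Pkm (-1.48, adjusted p = 0.00495), without replicate 2 Myc (2.37, adjusted p = 0.0169) and Slc2a1 (2.53, adjusted p = 0.016), and without replicate 3 Hk2 (4.09, adjusted p = 0.0328), which DESeq2 called too (2.72, adjusted p = 0.0418). In CD4+, 4 were called beside 21.3% of all genes. The change of Hif1a was smaller in Cat-Tg (-3.01 ± 0.55, adjusted p = 0.00164, kept in each of 12 omissions, at -2.22 without WT pre-tx replicate 1 and -3.60 without WT pre-tx replicate 2), as was that of Ldha (-1.14 ± 0.329, adjusted p = 0.023), and those of Myc (1.58 ± 0.512, adjusted p = 0.0379) and Slc2a1 (1.53 ± 0.489, adjusted p = 0.0358) were larger. Of the 12 omissions, Ldha was lost in 4, those of Cat-Tg pre-tx replicate 3, WT pre-tx replicates 1 and 3 and WT post-tx replicate 1 (adjusted p 0.0607 to 0.228). Slc2a1 was lost in 6, those of Cat-Tg pre-tx replicates 1 and 2, Cat-Tg post-tx replicate 1, WT pre-tx replicate 2 and WT post-tx replicates 2 and 3 (adjusted p 0.0694 to 0.0835). Myc was lost in 8, with each Cat-Tg pre-tx or WT post-tx library, Cat-Tg post-tx replicate 1 or WT pre-tx replicate 2 left out (adjusted p 0.052 to 0.0949), and was at 2.22 without WT pre-tx replicate 3. Limma-voom called neither Myc (adjusted p = 0.0881) nor Slc2a1 (adjusted p = 0.0514). The Ldha value in CD4+ was -0.81 with DESeq2's size factors (adjusted p = 0.112), which moved the median over all genes from -0.55 to -0.21, and it was not called by DESeq2 or with no filter either (adjusted p 0.105 and 0.0963). Without WT pre-tx replicate 3, Aldoa was called as well, at 1.35 (adjusted p = 0.0192). Because these values share their pre-tx libraries with the comparisons above, they are no separate evidence of them.

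CD8+ and CD4+ cells were compared within a genotype and time. Both were sorted from each mouse, so that the libraries of a comparison share animals, although no source says that a replicate number names a mouse. The fit took them as separate, and the value with the number as a block is given where it changed a call. Before transplantation none of the 10 was called by edgeR in Cat-Tg (1.52% of all genes called) or in WT (0.0367%). At an unadjusted p under 0.05 there were 2 and 4, and the share of all genes at that threshold is not given here. Limma-voom called 0 in both, and DESeq2 0 in Cat-Tg and 2 in WT (Hif1a 1.69 and Ldha -0.93). In the WT pre-tx libraries the labels did not hold, with Cd8a shares of 50.0 to 63.9% for CD8+ and 52.4 to 65.4% for CD4+. The WT pre-tx values are therefore no comparison of the cell types. In Cat-Tg post-tx, 2 were called beside 6% of all genes, both higher in CD8+. Pfkp was at 1161, 1300 and 1048 CPM against 317, 509 and 581 CPM in CD4+ (1.32 ± 0.312, adjusted p = 0.00972), a call lost without Cat-Tg CD4+ post-tx replicate 1 (adjusted p = 0.0518). Ldha was at 3410, 3733 and 3930 CPM against 1827, 1893 and 2013 CPM (0.95 ± 0.28, adjusted p = 0.0428), a call lost in each omission (adjusted p 0.0596 to 0.128) and without the 6 WT pre-tx libraries (0.92, adjusted p = 0.0761) or with no filter (1.09, adjusted p = 0.0632). With the block the Ldha call was lost (adjusted p = 0.0907) and that of Pfkp was kept. Myeloid genes were lower in CD8+ (7 of 11 called, median -4.32) and 6 of 15 proliferation genes were higher (median 1.11). Their part was not tested.

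In WT post-tx, 4 of the 10 were called beside 13.1% of all genes. Ldha was higher in CD8+ (1.72 ± 0.285, adjusted p = 0.000236), at 9494, 7408 and 5608 CPM against 2832, 1739 and 2274 CPM, and Hif1a was lower (-1.84 ± 0.45, adjusted p = 0.00731), at 81.6, 40.5 and 62.2 CPM against 193, 233 and 233 CPM. Neither overlapped. The Ldha call was kept in each omission, and that of Hif1a was lost without WT CD8+ post-tx replicate 2 (adjusted p = 0.076). Aldoa (1.35 ± 0.421, adjusted p = 0.0339) and Pkm (1.16 ± 0.336, adjusted p = 0.0225) were called higher in CD8+ although replicate 1 of CD8+, at 522 and 1689 CPM, lay within or below the CD4+ range. Without that library Aldoa was at 1.96. Both were lost without the 6 WT pre-tx libraries (adjusted p = 0.094 and 0.0763), and Aldoa by limma-voom (adjusted p = 0.137). With the replicate block the calls of Aldoa (adjusted p = 0.325) and Pkm (adjusted p = 0.175) were lost, and those of Ldha and Hif1a were kept. They were also lost without CD8+ replicate 2 or CD4+ replicates 2 or 3, and Aldoa without CD8+ replicate 3 (adjusted p 0.0528 to 0.288 for Aldoa and 0.0777 to 0.11 for Pkm). Calls were gained for Slc2a1 without CD8+ replicate 1 (1.24, adjusted p = 0.0206), for Myc without CD8+ replicate 2 (-1.61, adjusted p = 0.0216), and for Tpi1 without CD8+ replicate 3 (2.96, adjusted p = 0.0327) and by DESeq2 (2.56, adjusted p = 0.0148). Of 11 myeloid genes, 9 were lower in CD8+ (193 to 309 CPM against 998 to 1538 CPM, median -3.10), and 4 of 15 proliferation genes were higher. Their part was not tested.

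For each of the 10 genes, the genes with the most similar pattern were found among 16768 genes by the root mean square difference of the 8 group means on the log2 scale, each gene centred on its own mean. The closest to Pfkp was Mcm6 (0.15), a subunit of the helicase that opens DNA for replication and a gene of the proliferation list, beside a spread of Pfkp itself of 1.15. The closest to Pkm were Acads (0.16) and Eno1 (0.18), the enolase gene of the preceding step. The closest to Aldoa was Sh3bgrl3 (0.09), to Slc2a1 Sipa1 (0.16), to Pgk1 Ttll12 (0.15), to Myc Stx16 (0.19), to Tpi1 Ube2s (0.18), to Ldha Rps27l (0.23), to Hk2 Zcchc2 (0.25) and to Hif1a Rab8b (0.33). These distances are over 8 group means that share depth and scaling, and are a description.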

How the data were processed

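RNA of sorted CD8+ and CD4+ T cells was sequenced by the authors after SMART-Seq HT amplification and Nextera XT library preparation, in 24 libraries of 8 groups. The authors quantified reads with kallisto 0.46.2 (the processing notes also name mm9, and the release of the transcript index is not given in the sources used here), and deposited, for each library, an estimated count and TPM per transcript. The deposited estimated counts need not be whole, and the deposited TPM are scaled by transcript length and library total. Of 117497 transcripts, 116428 matched GENCODE M21 and held 99.64 to 99.76% of the counts. They were summed to 35868 genes by symbol, and rounded. The study itself used voom on TPM.

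Genes over 1 CPM in at least 3 libraries of a fit were tested with the robust quasi-likelihood F test of edgeR 4.0.16 (R 4.3.3) after TMM scaling, with CD8+ (12 libraries, 15975 genes) and CD4+ (12 libraries, 17243 genes) fitted apart, and all 24 libraries (19092 genes) for CD8+ against CD4+. Adjusted p-values are Benjamini-Hochberg over all genes of a fit, and SE is the absolute log2 fold change over the square root of F. The code was tested on simulated data. The alternatives were DESeq2 1.42.0, limma-voom (limma 3.58.1), edgeR with size factors from DESeq2, fits of unfiltered genes, a log2 fold change of at least 1, a replicate block, omission of each library and omission of the 6 WT pre-tx libraries. Pre-tx replicates were separate mice and post-tx replicates separate recipients, and p-values cover the spread between these. The SE comes from the same fit and holds that spread too, and the SD is the spread of 3 libraries. Floors cover counting error only.

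The 10 genes and the lists were chosen with earlier results of these data known. Named from each list were at most the 3 genes with the largest called change in a comparison of post-tx with pre-tx, and Gapdh, Eno1, Pgam1, Slc16a3, Max, Mxd4, Egln3, Vhl and Bnip3; values of a named gene in other comparisons, and Npm1 and Ncl in Cat-Tg CD4+, were added after the values were seen. The results of 2 genes that this rule names are not reported here. Gene coordinates are of GRCm38 (GENCODE M21), since the files hold none. Shared replicate numbers were not taken to pair the samples: no source ties a number to a mouse, and in no comparison did the deviations of all 3 same-numbered pairs correlate over 0.1.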

Additional observations from a re-analysis of the deposited data

Results flagged for a closer look

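The change on transplantation differed between the genotypes, by an interaction test in edgeR, for Ldha in CD8+ cells (-2.86 on the log2 scale, adjusted p = 0.0015) and, in CD4+ cells, for Hif1a (-3.01, adjusted p = 0.00164), Myc (1.58, adjusted p = 0.0379), Slc2a1 (1.53, adjusted p = 0.0358) and Ldha (-1.14, adjusted p = 0.023). A negative value means a smaller rise in Cat-Tg. Of 12 omissions of single libraries, the CD4+ values lost the call in 8 for Myc, 6 for Slc2a1 and 4 for Ldha, and those of Hif1a and of Ldha in CD8+ in 0. Limma-voom called neither Myc nor Slc2a1, and DESeq2, its size factors and no filter did not call Ldha in CD4+ (-0.83 to -0.81). Each of these 5 values uses the WT pre-tx libraries, in which Cd8a and Cd4 did not separate the labelled cell types and B cell genes were at 11458 to 15368 CPM. The Cat-Tg pre-tx libraries also differed from the other groups in Y-linked transcripts. Their part in the 5 values was not tested, since no fit of the interaction is possible without them.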

How the results depend on the processing

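Of the 38 calls made for the 10 genes over 14 comparisons, 17 were kept without each library in turn and 21 were lost without at least 1. Apart from omissions of single libraries and the fold threshold, 30 were kept under every alternative that could be run for them, and no called value changed sign. The fit without the 6 WT pre-tx libraries could be run for 18 of the 38, of which 3 lost the call. The others use those libraries, so that fit says nothing about them. With single libraries left out, the number of the 10 genes called lay between 2 and 5 for post-tx against pre-tx in Cat-Tg CD8+, 5 and 6 in WT CD8+, 4 and 6 in Cat-Tg CD4+ and 3 and 4 in WT CD4+. For Cat-Tg against WT it lay between 1 and 2 in CD8+ pre-tx, 0 and 2 in CD8+ post-tx and 1 and 4 in CD4+ pre-tx, and was 0 in CD4+ post-tx. For the interaction it lay between 1 and 3 in CD8+ and 2 and 4 in CD4+. For CD8+ against CD4+ it was 0 in both pre-tx comparisons, between 0 and 1 in Cat-Tg post-tx and between 2 and 5 in WT post-tx. DESeq2 called 3 in CD8+ pre-tx and 2 in CD8+ post-tx between genotypes, 2 for the CD8+ interaction and 2 for CD8+ against CD4+ in WT pre-tx. Limma-voom called 1 in CD8+ post-tx between genotypes and 2 for the CD4+ interaction. For CD8+ against CD4+ in Cat-Tg post-tx, 1 was called with the fold threshold, with no filter, and without the 6 WT pre-tx libraries; in WT post-tx, 2 were called without those 6. The cause of these changes was not tested. Over all genes, DESeq2 called 4288 against 2234 by edgeR for post-tx against pre-tx in Cat-Tg CD8+, 2616 against 1436, 1368 against 266 and 2678 against 1754 between genotypes in CD8+ pre-tx, CD8+ post-tx and CD4+ post-tx, 2874 against 1710 for the CD8+ interaction, and 637 against 291, 456 against 7 and 1987 against 1146 for CD8+ against CD4+ in Cat-Tg pre-tx, WT pre-tx and Cat-Tg post-tx. The 266 became 551 with no filter, 110 with the replicate block and 140 without the 6 WT pre-tx libraries, and the 7 became 2 by limma-voom and 3 with the block. The block gave 745 for the 1146 and 1604 against 2510 for CD8+ against CD4+ in WT post-tx. With single libraries left out, the genes called ranged from 5 (without Cat-Tg replicate 2) to 570 in CD8+ post-tx, 647 to 1017 in CD8+ pre-tx, 2289 to 3072 (3525 with all) in CD4+ pre-tx and 771 to 1846 in CD4+ post-tx between genotypes, 976 to 2560 in Cat-Tg CD8+ and 2541 to 4149 (4207 with all) in WT CD4+ for post-tx against pre-tx, 991 to 2513 in CD8+ and 2369 to 3546 (3681 with all) in CD4+ for the interaction, and 178 to 310, 0 to 10, 723 to 999 and 1585 to 3076 for CD8+ against CD4+ in Cat-Tg pre-tx, WT pre-tx, Cat-Tg post-tx and WT post-tx. DESeq2's size factors moved the median over all genes from -0.38 to -0.16 in Cat-Tg CD4+, from 0.03 to -0.17, -0.19 to -0.06 and -0.18 to -0.29 between genotypes in CD4+ pre-tx, CD4+ post-tx and CD8+ post-tx, from -0.20 to -0.31 for the CD8+ interaction and from -0.03 to 0.14 for CD8+ against CD4+ in WT post-tx. They moved the share of called genes that were higher from 64.9 to 51.8% for Cat-Tg against WT in CD4+ pre-tx, from 34 to 52.3% for the CD4+ interaction and from 45.5 to 56.3% for CD8+ against CD4+ in WT post-tx.

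Replicate numbers are shared between groups, and the deviations of same-numbered samples did not all correlate over 0.1 in any comparison (lowest -0.263). For CD8+ against CD4+ the cells came from the same mice, but no source ties a number to a mouse. With the replicate block, 1 of the 10 genes was called for CD8+ against CD4+ in Cat-Tg post-tx, where Ldha was lost (adjusted p = 0.0907), and 2 in WT post-tx, where Aldoa and Pkm were lost (adjusted p = 0.325 and 0.175), 5 for post-tx against pre-tx in WT CD8+, where Tpi1 was lost (adjusted p = 0.0503), and the other counts were as without it. For post-tx against pre-tx in Cat-Tg CD4+ and Cat-Tg against WT in CD8+ pre-tx, each library of the group named first correlated best with its own number. Same-numbered pairs there correlated at only 0.0438 to 0.11 and 0.0631 to 0.197. The groups compared came from different animals, so the design gives no pairs. With 3 libraries a group and 10 to 402 counts per library, differences in Tpi1 in particular were not detectable unless large.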
